A study of Mus musculus with 12 samples.

Results

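In adult mouse testes the undifferentiated spermatogonia hold both the GFRα1+ cells, in which stem cell function largely resides, and the NGN3+ cells that derive from them. NGN3+ cells turn into KIT+ differentiating spermatogonia. The genes described here had a high signal in GFRα1+ cells, fell on the way to NGN3+ cells and stayed at that level in KIT+ cells. They were chosen from the log2 values that the authors deposited, with 1 probe per gene name and the means of 3 arrays per group. A member lay at least 1.5 lower in NGN3+ than in GFRα1+ cells, and its KIT+ mean was within 0.5 of its NGN3+ mean. Its mean was at least 0 in GFRα1+ cells and at least −3 in NGN3+ cells. On this scale the 75th percentile of each array is 0. Of 36413 names on the array, 11401 met both floors, 284 of these fell by at least 1.5, and 109 were members.

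Every group had 3 Agilent 1-colour arrays, on which spot brightness follows the amount of a transcript. GFRα1+ cells were the EGFP+ cells of mice with EGFP knocked into the Gfra1 locus. NGN3+ cells were the EGFP+/KIT− cells, and KIT+ cells the EGFP+/KIT+ cells, of mice carrying an Ngn3-EGFP transgene. Whole testes came from wild-type littermates of the knock-in mice. All mice had a C57BL/6 background and were 10 to 11 weeks old, and a sorted sample was taken from 1 mouse or, for NGN3+ cells, from 2 pooled mice. The GFRα1+ fraction and the other sorted fractions therefore came from different reporter lines, and line and cell state cannot be told apart. In sorted bulk samples, fewer cells of a type and less RNA per cell cannot be told apart either.

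Stem cell activity in this compartment is tied to GDNF, a factor from somatic cells that acts through GFRα1 and RET and drives ERK and AKT signalling. Cells that become NGN3+ lose responsiveness to GDNF and gain readiness for retinoic acid, and retinoic acid then brings about KIT expression and the differentiating divisions. A transcript can be lower in NGN3+ than in GFRα1+ cells and hold its level in KIT+ cells, or fall again in KIT+ cells. The genes described here are those of the former kind. Neither signal was measured, and whether the falls follow from them was not tested.

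The fractions were checked by their markers. Gfra1 stood at 1.65 ± 0.16 (SD, n = 3) in GFRα1+, −1.22 ± 0.23 in NGN3+ and −3.38 ± 0.05 in KIT+ cells on the log2 scale, so that it fell at both steps and was no member. Neurog3, the gene of NGN3, was at 4.13 ± 0.21, 5.23 ± 0.43 and 2.77 ± 0.17, highest in NGN3+ cells but already high in GFRα1+ cells. Kit was at 1.57, 1.36 and 1.57 in GFRα1+, 1.47, 1.82 and 2.60 in NGN3+ and 4.45, 4.67 and 4.51 in KIT+ cells. Of all probes, 50.1% to 50.8% were well above background on GFRα1+ arrays, against 54.8% to 65.1% on the other sorted arrays. The summed linear signal of 17 haploid spermatid genes, relative to the 75th percentile, was 29.9 to 66.9 on GFRα1+, 1397 to 1746 on NGN3+ and 1677 to 2137 on KIT+ arrays, and their part in the falls was not tested. Slides divided the groups unevenly. GFRα1+ replicates 1 and 2 shared the first of 3 slides with a single whole testes array, whereas replicate 3 was placed on the second slide beside every array of NGN3+ and KIT+ cells. The remaining whole testes arrays were on the third.

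Among the 284 genes that fell, 135 fell by over 0.5 more in KIT+ cells, 40 came back up by over 0.5, and the 109 members, 38.4%, were level. The members' median log2 difference between NGN3+ and GFRα1+ cells was −1.72, with a range of −4.79 to −1.51, a median 3.30-fold lower signal in NGN3+ cells. Their median difference between KIT+ and NGN3+ cells was −0.02, from −0.49 to 0.40. These differences chose the members and are given as a description. All 109 were called lower in NGN3+ cells by limma, where 36.3% of the 23829 genes tested were called lower and the median of all genes was −0.19. Of the 23829 genes 4765 were called higher. Between NGN3+ and KIT+ cells 10 members were called changed (34.4% of all genes tested), 7 lower in KIT+ cells (17.0%) and 3 higher (17.4%). The 7 were Cnnm1, Foxo6, Ipo8, Myo18a, Itm2c, Gsta4 and Adamts17, and the 3 were Inppl1, Magea1 and a transcript known only as ENSMUST00000099446, all named here after their values were seen.

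**Figure D1:**
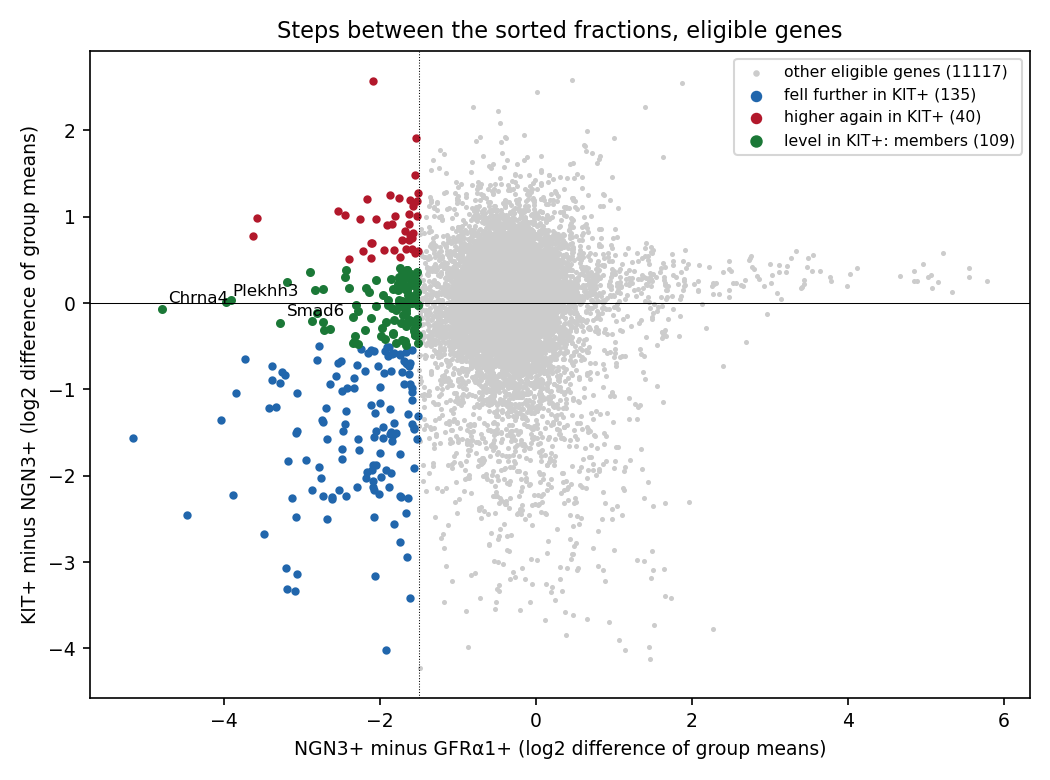
Log2 difference between KIT+ and NGN3+ cells (y axis) against that between NGN3+ and GFRα1+ cells (x axis), from the means of 3 arrays per group, for the 11401 genes that met both floors. The 109 members (green) lie left of the dotted line at −1.5 and between −0.5 and 0.5 on the y axis, with 135 genes that fell further below them and 40 that came back up above them.

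Every one of the 109 probes was well above background on all 9 sorted arrays, and 102 were so on all 3 whole testes arrays. In all 109 each GFRα1+ array lay above each NGN3+ array, a separation seen in 41.0% of all genes tested, and in 108 each GFRα1+ array also lay above each KIT+ array. The same arrays chose the members, so that nothing is read from these counts, nor from this separation where it is described for single genes or groups below. The thresholds passed through a continuum. Adamts17, which encodes a secreted metalloprotease, was just inside with a difference of −1.51, and Cebpd, a transcription factor gene, was just outside with −1.49. Myo18a was inside the KIT+ window with a KIT+ mean 0.49 from its NGN3+ mean, and Spry1, a feedback inhibitor of receptor tyrosine kinase signalling, was outside it at 0.50. Chrna4 was inside the NGN3+ floor with −2.77, whereas the immediate early gene Fos, at −3.30, was left out.

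By annotation the members were of mixed kinds. RefSeq symbols were matched for 85, of which 73 were protein coding, 11 were pseudogenes and 1 was the long noncoding RNA H19. The other 24 had only a transcript or locus name, and 4 of these were probes for long intergenic noncoding RNAs. This division bears on the values, because the 2 classes behaved differently between the slides. For the 73 protein-coding members GFRα1+ replicate 3, which shared its slide with the NGN3+ arrays, was a median 1.76 above the NGN3+ mean, and replicates 1 and 2 were a median 1.90 above it. For the other 36 the medians were 0.91 and 2.07.

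Taken alone, replicate 3 was at least 1.5 above the NGN3+ mean in 54 of the 73 protein-coding members and in 3 of the other 36. Replicate 3 was over 1 below the mean of replicates 1 and 2 in 3 of 73 and in 19 of 36. Among all genes that met the floors, that gap occurred in 0.491% of 8759 protein-coding genes and in 4.92% of the 2642 others. Slide, extraction version and replicate cannot be told apart for these probes. Left without replicate 3, the rule found 215 genes, 105 of them among the 109, and with replicate 3 as the only GFRα1+ array it found 74, of which 56 were among the 109. The protein-coding members are therefore described first, and the others afterwards with each array given.

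**Figure D2:**
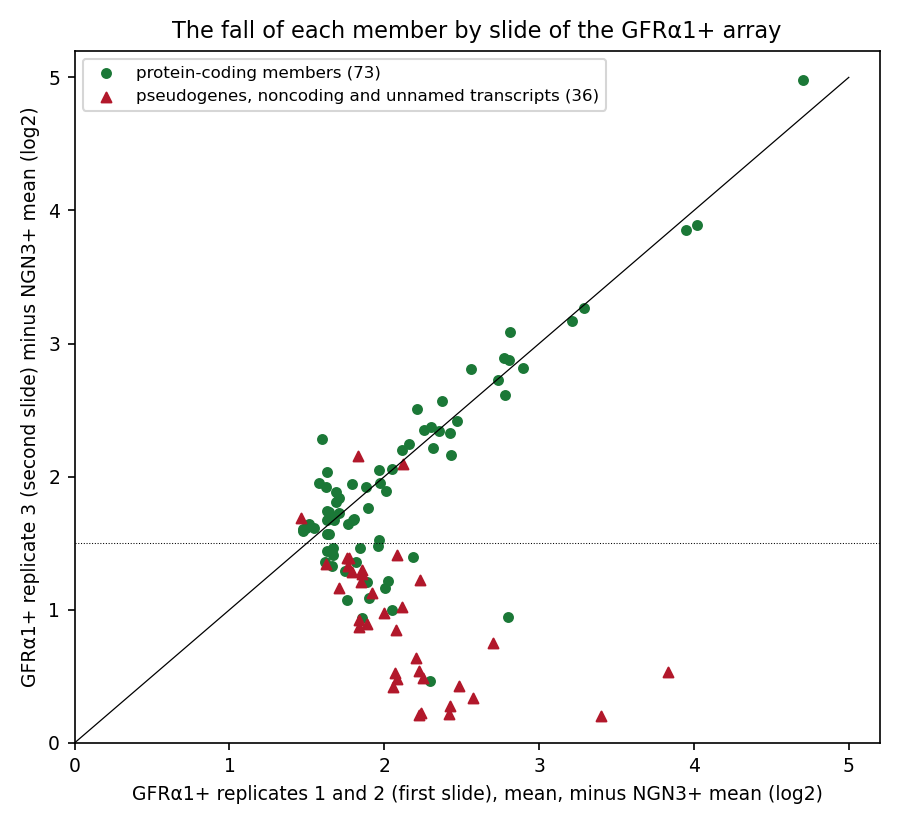
Distance of GFRα1+ replicate 3 (second slide, y axis) and of the mean of replicates 1 and 2 (first slide, x axis) above the NGN3+ mean, in log2 units, for each of the 109 members. Protein-coding members (green circles, n = 73) mostly follow the diagonal of equal distance, whereas 33 of the 36 other members (red triangles) had a lower value in replicate 3 than in both others. Replicate 3 was also the lowest in 30 of the 73 protein-coding members, and in 33.9% of all genes that met the floors.

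The deepest fall was that of Chrna4, which encodes the α4 subunit of nicotinic acetylcholine receptors. Its log2 levels were 2.11, 1.74 and 2.20 in GFRα1+ cells, −2.75, −2.87 and −2.72 in NGN3+ cells and −3.05, −2.62 and −2.90 in KIT+ cells. The GFRα1+ arrays lay 4.46 above the nearest NGN3+ array, the signal was 27.8-fold higher, and NGN3+ and KIT+ arrays overlapped. In whole testes the probe was not well above background on any array, so that GFRα1+ cells stood at least 90.2-fold and NGN3+ cells at least 3.25-fold above whole testes. For such a bound the dim group was given, on each array, either the dimmest signal that still counted as well above background or the reading of the probe itself, whichever was higher.

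Further membrane proteins best known from nerve cells shared this course. Tmem132e, which encodes a transmembrane protein with a role in hearing, was at 3.16, 3.28 and 3.13 in GFRα1+, −0.79, −0.84 and −0.56 in NGN3+ and −0.86, −0.44 and −0.80 in KIT+ cells. Pianp, which encodes a ligand of the inhibitory receptor PILRα, was at 0.53, 0.59 and 0.81, then −1.96, −1.84 and −2.20, then −2.37, −2.32 and −2.23. Ly6h, for a GPI-anchored protein of the Ly6 family, fell less, from a mean of 0.81 ± 0.09 (SD, n = 3) to −1.04 ± 0.17, and was −1.10 ± 0.28 in KIT+ cells. In all 4 of these genes no GFRα1+ array came near the other sorted arrays, and in all 4 whole testes lay below every sorted array. In Pianp, too, no whole testes array was well above background, and NGN3+ cells were at least 5.57-fold above them.

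**Figure D3:**
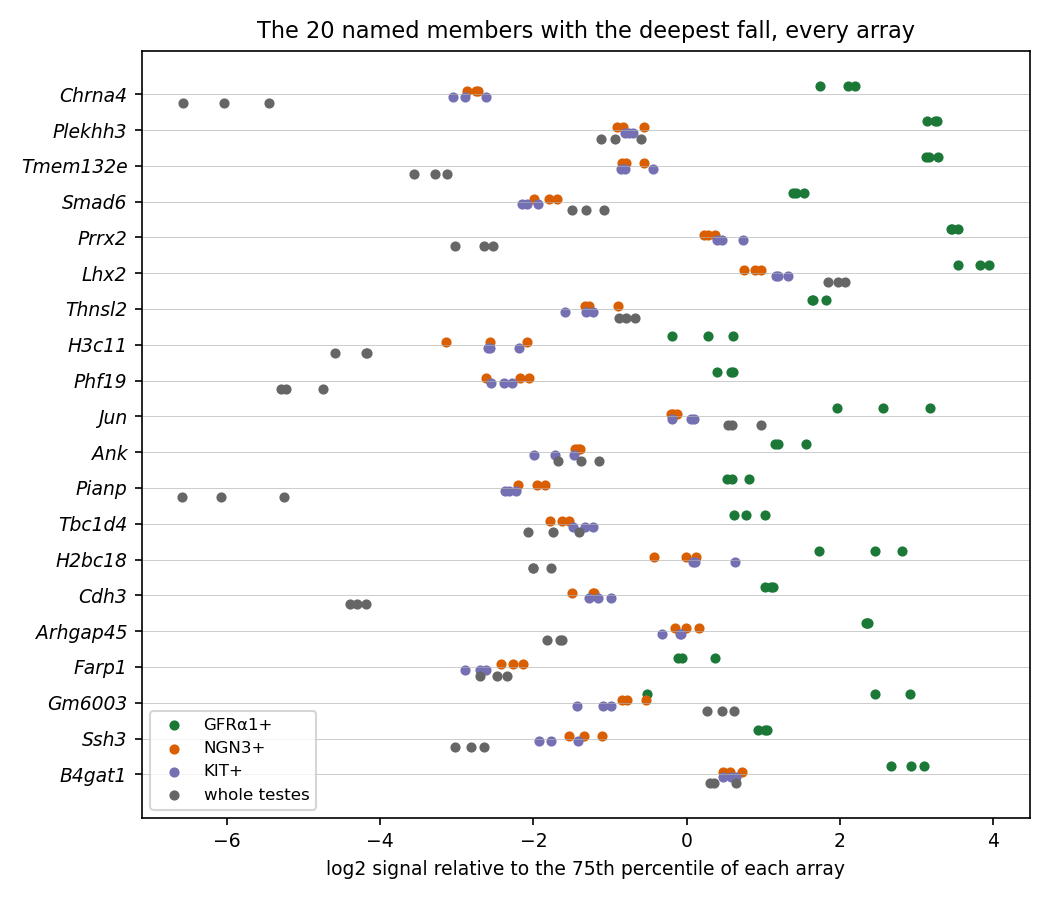
Log2 signal relative to the 75th percentile of each array (x axis) in all 12 arrays for the 20 named members with the deepest fall. Each point is an array, coloured by group, and in each row but that of the pseudogene Gm6003 the 3 GFRα1+ arrays lie apart to the right of the NGN3+ and KIT+ arrays, which lie together.

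Plekhh3, the second deepest fall, encodes a cytoskeleton-associated protein with pleckstrin homology and FERM domains. It read 3.25, 3.27 and 3.13 in GFRα1+, −0.91, −0.83 and −0.55 in NGN3+ and −0.80, −0.75 and −0.70 in KIT+ cells, a 15.8-fold drop to levels that overlapped among NGN3+, KIT+ and whole testes arrays. The whole testes levels were −0.60, −1.12 and −0.94, and their difference from NGN3+ cells was −0.12 ± 0.14 (SE; adjusted p = 0.437 from limma). A test that did not pass does not show equal levels. In Plekhh3 the GFRα1+ arrays thus stood above the arrays of all other groups, which overlapped, while Chrna4 and its fellows were lower still in whole testes.

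Signalling genes among the members included an inhibitor, a ligand and regulators of small GTPases. Smad6, which encodes an inhibitory SMAD that restrains BMP signals, was at 1.53, 1.39 and 1.43 in GFRα1+, −1.70, −2.00 and −1.80 in NGN3+ and −2.09, −2.15 and −1.94 in KIT+ cells, a 9.73-fold drop. Of 16 genes of the TGF-β and BMP pathway that met the floors it was the only member, and 3 others fell further in KIT+ cells. Fgf9, a fibroblast growth factor ligand, went from 0.80 ± 0.17 (SD, n = 3) to −1.49 ± 0.14 and −1.58 ± 0.13. Fgf9 and Plk3 were named after their values were seen.

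Rasgrp2, an exchange factor for the small GTPase RAP1, was among the brightest members, at 5.24, 5.22 and 5.32 in GFRα1+ and 3.28, 2.98 and 2.95 in NGN3+ cells. Its 3 whole testes arrays, at −0.32, −0.45 and −0.04, were far below all sorted arrays, with a difference from NGN3+ cells of −3.34 ± 0.14 (SE; adjusted p = 5.62e-09 from limma). A further Rasgrp2 probe fell by 2.24. Inppl1, which encodes the inositol phosphatase SHIP2, was at 5.19, 4.96 and 4.95 in GFRα1+ and 3.41, 3.27 and 3.24 in NGN3+ cells and edged up to 3.57, 3.74 and 3.74 in KIT+ cells. Plk3, a stress-responsive kinase gene, went from a mean of 1.75 ± 0.10 (SD, n = 3) to −0.39 ± 0.08.

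Most genes of the ERK feedback list took another course. Of 11 that met the floors 7 fell further in KIT+ cells, and Dusp4, a nuclear phosphatase that inactivates ERK, was the only member. Dusp4 was at 1.86, 1.73 and 1.93 in GFRα1+, −0.18, 0.40 and 0.04 in NGN3+ and 0.56, 0.00 and 0.48 in KIT+ cells. NGN3+ and KIT+ arrays overlapped, and whole testes, at 2.94, 3.40 and 3.32, were above every sorted array, 3.13 ± 0.19 (SE; adjusted p = 5.64e-08 from limma) above NGN3+ cells. Of 30 stem state and GDNF-responsive genes that met the floors, 14 fell further, 1 came back up and Lhx2 alone was level. In the same comparison 29 of the 38 genes of that list that were tested were lower in NGN3+ cells (36.3% of all genes tested) and 4 were higher (4765 of all 23829).

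Lhx2, a LIM homeobox transcription factor gene, read 3.83, 3.54 and 3.95 in GFRα1+, 0.74, 0.97 and 0.89 in NGN3+ and 1.20, 1.16 and 1.33 in KIT+ cells. GFRα1+ arrays were all above 3.5, while KIT+ arrays were a little above NGN3+ arrays with no overlap. Whole testes were higher than either, at 1.85, 2.07 and 1.98, which was 1.10 ± 0.13 (SE; adjusted p = 9.21e-06 from limma) above NGN3+ cells. Prrx2, a paired-related homeobox gene, fell 9.18-fold, from 3.55, 3.46 and 3.46 to 0.37, 0.23 and 0.28, stayed at 0.40, 0.74 and 0.46 in KIT+ cells, and was far lower, at −2.53, −3.03 and −2.64, in whole testes.

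Other regulators of transcription had the same course among sorted cells and differed in whole testes. Foxo6, a forkhead gene, had the highest GFRα1+ mean of the protein-coding members, with 5.60, 5.43 and 5.60 in GFRα1+, 3.72, 3.49 and 3.44 in NGN3+ and 3.17, 3.25 and 3.10 in KIT+ cells. Phf19, a Polycomb-like gene of the PRC2 complex, fell 7.03-fold, from a mean of 0.53 ± 0.11 to −2.29 ± 0.30 (SD, n = 3), and was not well above background on any whole testes array. NGN3+ cells stood at least 4.57-fold above whole testes in Phf19. By contrast Scmh1, for a protein of the PRC1 complex, which was named after its values were seen, was higher in whole testes than in NGN3+ cells by 1.08 ± 0.09 (SE; adjusted p = 8.89e-07 from limma).

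Of 14 immediate early genes that met the floors, 2 were members and 2 fell further in KIT+ cells. Jun, a subunit of the transcription factor AP-1, varied more among GFRα1+ arrays than Klf6 did, with 1.96, 3.17 and 2.56, and was at −0.18, −0.12 and −0.20 in NGN3+ and 0.10, 0.06 and −0.19 in KIT+ cells. Klf6, a zinc finger transcription factor gene, was steadier, with 2.47, 2.36 and 2.30, then 0.57, 0.42 and 0.22, then −0.01, 0.09 and 0.26. The lowest GFRα1+ array of either gene was above all NGN3+ and KIT+ arrays. Over the whole list 18 of 26 genes tested were lower in NGN3+ cells (36.3% of all genes tested) and, by limma, none was higher (4765 of all 23829). Fos missed the NGN3+ floor as given above.

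Regulators of small GTPases and of actin made up 11 members, a grouping made after their values were seen. In all 11 GFRα1+ replicate 3 alone was at least 1.5 above the NGN3+ mean, as it was in 54 of the 73 protein-coding members. That array also chose the members, and nothing is read from this. Arhgap45, a GTPase-activating protein gene, was at 2.34, 2.36 and 2.35 in GFRα1+ and −0.01, −0.15 and 0.16 in NGN3+ cells, with a KIT+ mean of −0.16 ± 0.14 (SD, n = 3). Rhoc, which encodes the GTPase RHOC, went from 4.34 ± 0.06 to 2.68 ± 0.09, and a further Rhoc probe fell by 1.57. Capg, for an actin filament capping protein, went from 4.85 ± 0.11 to 3.01 ± 0.15, and Ssh3, for a phosphatase of the cofilin pathway, was at 0.94, 1.02 and 1.05 and then at −1.10, −1.34 and −1.53. Farp1 and Arhgef39, for exchange factors of small GTPases, and Tbc1d4, for a Rab GTPase-activating protein, fell by 2.34, 1.89 and 2.45. By limma 8 of the 11 were lower in whole testes than in NGN3+ cells (44.5% of all genes tested) and 1, Arhgef39, was higher (39.3%).

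Of 48 integrin, cadherin and protocadherin genes tested, NGN3+ cells had 13 lower (36.3% of all genes tested) and 14 higher (4765 of all 23829). The median log2 difference from GFRα1+ cells was −0.03, and 3 were members. Cdh3, which encodes P-cadherin, was at 1.13, 1.11 and 1.02 in GFRα1+, −1.22, −1.49 and −1.21 in NGN3+ and −1.16, −0.99 and −1.27 in KIT+ cells. Whole testes were about 3 log2 units lower still in Cdh3, with 2 of 3 arrays well above background. The integrin α1 gene Itga1 and the protocadherin gene Pcdh1 were the other members among 16 integrins, cadherins and protocadherins that met the floors, with means of 0.17 ± 0.26 and 0.31 ± 0.04 (SD, n = 3) in GFRα1+ and −1.55 ± 0.21 and −1.29 ± 0.29 in NGN3+ cells. Itga1 was higher in whole testes than on every sorted array, at 0.80, 1.06 and 0.95.

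The basement membrane gene Nid2, named after its values were seen, was at 3.37, 3.17 and 3.31 in GFRα1+ and 1.68, 1.52 and 1.64 in NGN3+ cells. In whole testes Nid2 had the lower levels of −0.65, −1.02 and −0.90. Itga1 and Nid2 thus had the same direction among sorted cells and opposite directions from NGN3+ cells to whole testes.

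The 3 histone members were single genes of large families. H3c11, a histone H3 gene, was at 0.61, −0.19 and 0.28 in GFRα1+ and −2.57, −3.14 and −2.08 in NGN3+ cells. H2bc18, a histone H2B gene, was at 2.81, 1.73 and 2.46, then 0.12, −0.42 and −0.01, then 0.11, 0.64 and 0.08 in KIT+ cells. The linker histone gene H1f4 was brighter and tighter, with 3.32, 3.17 and 3.17 against 1.67, 1.56 and 1.58. Each GFRα1+ array was above each NGN3+ and KIT+ array in all 3 genes, and each whole testes array was below every sorted array. Of the 61 histone genes tested 37 were lower in NGN3+ than in GFRα1+ cells (36.3% of all genes tested) and 6 were higher (4765 of all 23829). Their median log2 difference was −0.60.

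The proliferation list held no member, although all 19 of its genes tested were lower in NGN3+ cells (36.3% of all genes tested). Its summed linear signal relative to the 75th percentile was 435 to 495 on GFRα1+, 256 to 303 on NGN3+ and 441 to 517 on KIT+ arrays. The proliferation genes as a sum were therefore lowest in NGN3+ cells among the sorted fractions.

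Metabolic members spanned several pathways. Dhrs3, which encodes a retinaldehyde reductase that limits retinoic acid formation, was at 0.99, 0.93 and 1.36 in GFRα1+, −0.55, −0.79 and −0.67 in NGN3+ and −0.36, −0.54 and −0.45 in KIT+ cells. It was the only member among 12 genes of retinoic acid metabolism and receptors that met the floors. Whole testes overlapped with GFRα1+ cells in Dhrs3, at 1.11, 1.11 and 0.75, and were 1.66 ± 0.15 (SE; adjusted p = 9.31e-07 from limma) above NGN3+ cells. Thnsl2, a threonine synthase-like gene, fell 7.30-fold, the pyrophosphate transporter gene Ank 6.60-fold, and B4gat1, whose product glycosylates dystroglycan, 4.96-fold. Lonp2, for a peroxisomal protease, stood at 4.07, 4.09 and 3.96 in GFRα1+ cells and between 2.18 and 2.43 on all other 9 arrays.

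Cyp17a1 encodes the steroid hydroxylase known from Leydig cells. It was at 3.41, 3.30 and 2.55 in GFRα1+, 1.71, 1.20 and 1.07 in NGN3+, 1.28, 1.55 and 1.25 in KIT+ cells and 3.34, 3.71 and 3.44 in whole testes. Cyp11a1, Hsd3b1 and Hsd17b3 were well above background on no sorted array and on all 3 whole testes arrays. Star, another Leydig gene, passed that mark on 2 GFRα1+ arrays and on 3 arrays each of NGN3+, KIT+ and whole testes samples. Counting genes that passed on each of a group's 3 arrays, 4 of 10 Leydig genes did so in GFRα1+, 5 in NGN3+ and 5 in KIT+ cells. Without Cyp17a1 these counts were 3, 4 and 4. The summed linear signal of the 10 Leydig genes was 29.6 to 35.3 on GFRα1+, 24.2 to 27.3 on NGN3+ and 29.9 to 34.8 on KIT+ arrays. Without Cyp17a1 it was 23.7 to 25.5, 22.1 to 24.02 and 27.5 to 31.9, and the part of Leydig cells in the Cyp17a1 values was not tested. No gene of the lists for endothelial cells, macrophages and leukocytes, peritubular myoid cells, fibroblasts, Schwann cells or Sertoli cells was a member, and 2 to 7 genes of each of these lists met the floors.

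Slc48a1, a heme transporter gene, Cpe, the gene of a prohormone-processing carboxypeptidase, and C4b, a complement gene, were also higher in whole testes. Slc48a1 had GFRα1+ levels of 0.70, 0.68 and 0.31 against −0.73, −1.02 and −1.69 in NGN3+ cells. Cpe was at 2.51, 3.03 and 0.94 in GFRα1+ and 0.56, 0.86 and −0.01 in NGN3+ cells, and C4b at 1.36, 1.76 and −0.29 and at −1.62, −1.28 and −0.82. In Cpe and C4b replicate 3, on the second slide, lay close to NGN3+ cells and replicates 1 and 2 did not. Replicate 3 of Cpe was 0.47 above the NGN3+ mean, and in the fit with slide as a block that difference did not pass (adjusted p = 0.302 from limma).

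On the X chromosome, 5 protein-coding members of 9 members there had close values, and they were grouped after their values were seen. Trap1a, which encodes a tumour rejection antigen, was at 2.85, 2.59 and 2.92 in GFRα1+, 1.05, 1.03 and 1.02 in NGN3+ and 1.19, 1.29 and 1.53 in KIT+ cells. Magea1 and Magea5, of the MAGE family of germline and tumour antigens, had means of 3.12 ± 0.13 and 1.58 ± 0.20 (SD, n = 3) in GFRα1+, 1.52 ± 0.09 and 0.00 ± 0.10 in NGN3+ and 1.86 ± 0.11 and 0.27 ± 0.04 in KIT+ cells. The reproductive homeobox genes Rhox4a and Rhox4g fell by 1.53 and 1.71, but their probes share a run of at least 30 bases and may not count as separate genes. KIT+ means were 0.23 to 0.34 above NGN3+ means in all 5. Whole testes lay below every sorted array in all 5, with differences from NGN3+ cells between −2.61 and −2.02.

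H19, the imprinted noncoding RNA, was at 4.90, 4.72 and 5.03 in GFRα1+, 3.47, 3.09 and 3.48 in NGN3+ and 3.48, 3.83 and 3.50 in KIT+ cells. Its 5 other probes with signal well above background on all GFRα1+ arrays fell by 1.47 to 1.69. In whole testes H19 was at −0.49, −1.37 and −0.80, and its difference from NGN3+ cells of −4.23 ± 0.21 (SE; adjusted p = 1.38e-08 from limma) was the lowest of the members measured above background in whole testes. The fall of H19 at the NGN3+ step was thus the smaller of 2 distances between its levels.

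**Figure D4:**
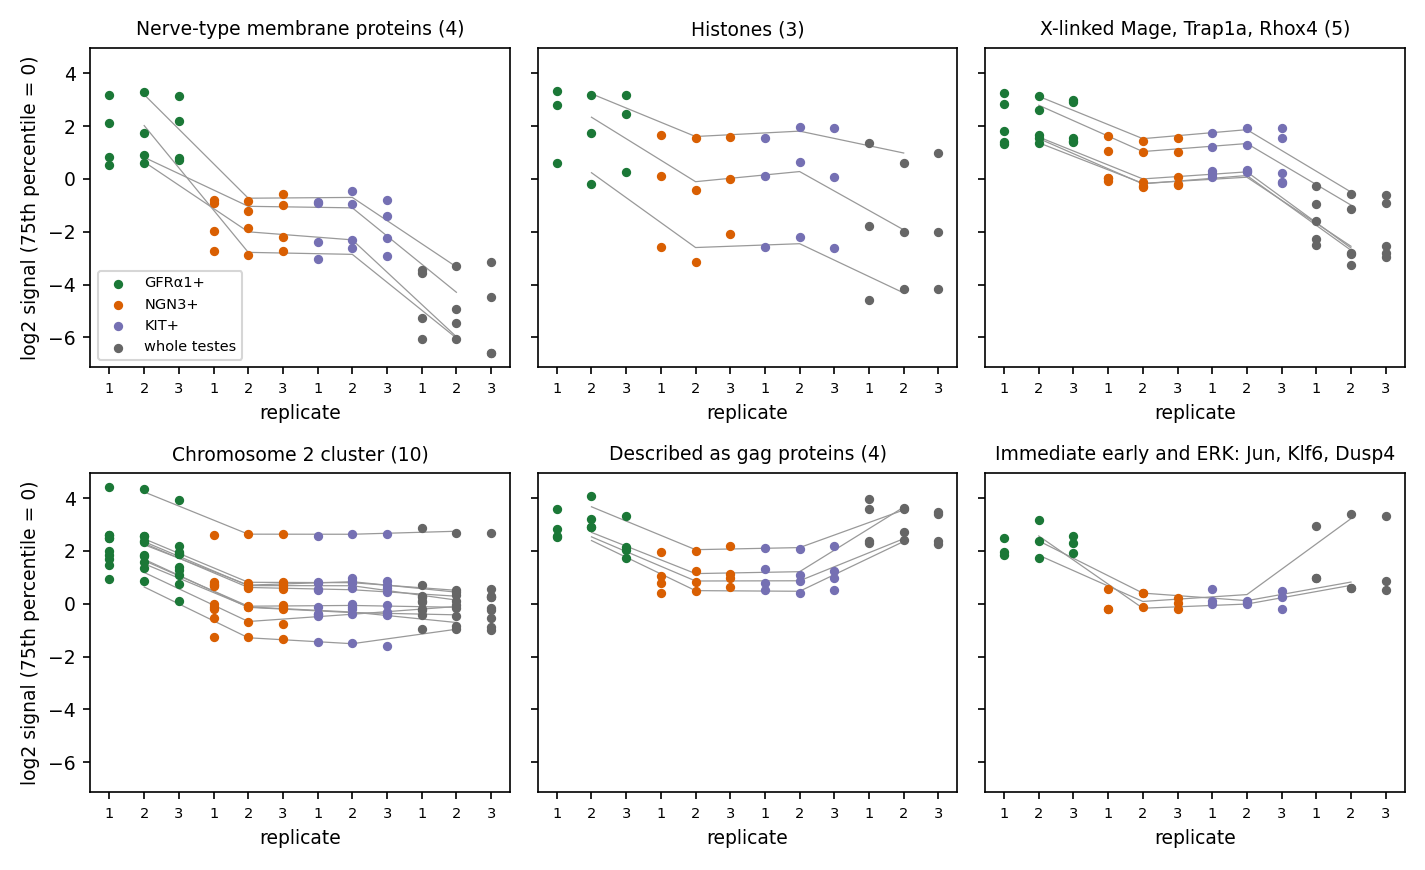
Log2 signal relative to the 75th percentile of each array (y axis) by replicate for 6 groups of members, with arrays as points coloured by group and grey lines joining the group means of each gene. GFRα1+ points lie highest among the sorted arrays in each panel, and whole testes lie below NGN3+ and KIT+ cells in the first row, near them for the chromosome 2 genes, and above them for the gag transcripts.

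By position, 16 members lay on chromosome 2 among 900 genes that met the floors, 1.78% against 0.956% over the genome. The X chromosome, with 9 of 470 (1.92%), chromosome 13, with 8 of 441 (1.81%), and chromosome 19, with 6 of 365 (1.64%), had similar shares. On chromosome 2 a run of 10 sat between 175208144 and 177802459 (mm9), a stretch of zinc finger genes. It held Zfp967, Zfp931, Gm14308, Gm14326, Gm14391 and Gm14410 and 4 transcripts without a symbol. Of 35 genes tested in the stretch 26 were lower in NGN3+ than in GFRα1+ cells by limma (36.3% of all genes tested), with a median log2 difference of −0.83. None was higher, at an unadjusted p under 0.05 either. Since the members set the bounds of the stretch, its counts include them.

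Levels in the stretch were parallel. Gm14326 was the brightest, at 4.41, 4.35 and 3.93 in GFRα1+, 2.61, 2.65 and 2.65 in NGN3+, 2.58, 2.66 and 2.65 in KIT+ cells and 2.87, 2.70 and 2.67 in whole testes. Zfp967 was at 2.60, 2.56 and 1.89, then 0.73, 0.58 and 0.75, and Zfp931 at 1.84, 1.81 and 1.39, then −0.12, −0.09 and −0.20. GFRα1+ arrays were above all others, and whole testes differed from NGN3+ cells by −0.59 to 0.57. By limma 3 of the 10 were lower in whole testes than in NGN3+ cells (44.5% of all genes tested) and 1 was higher (39.3%). Whole testes lay below every sorted array in 4 of the 10 and above every NGN3+ array in 3. In all 10 replicate 3 was the lowest GFRα1+ array (33.9% of all genes that met the floors), 1.16 to 1.52 above the NGN3+ mean. Such genes are alike in sequence, and the probes of Gm14326 and of the transcript Gm2049 share at least 30 bases, so that signal may be shared between them.

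The highest GFRα1+ mean of all members was that of a noncoding RNA probe annotated as chr19:5801802-5802597 on the reverse strand (mm9). It was at 6.19, 6.86 and 6.50 in GFRα1+, 4.45, 4.29 and 4.48 in NGN3+, 4.04, 4.42 and 4.25 in KIT+ cells and 6.22, 5.95 and 5.62 in whole testes. Its 2 other probes fell by 2.20 and 2.32. The interval lies within chr19:5795689-5802671, which the files annotate as NEAT2, another name of the nuclear noncoding RNA Malat1. At the other end of that span, the probe named Malat1 was dim, at −2.01, −1.29 and −1.66 in GFRα1+ and −2.86, −2.32 and −2.30 in NGN3+ cells, and was at −1.89, −1.39 and −1.28 in KIT+ cells. Probes within the same span thus did not share 1 course.

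Pseudogenes and unnamed transcripts made up most of the rest, and there the arrays of the 2 slides parted. Gm6003, a pseudogene, was at 2.45 and 2.91 in replicates 1 and 2 and at −0.52 in replicate 3, against −0.78, −0.53 and −0.84 in NGN3+ cells. Gm8618, another pseudogene, was at 5.64, 5.67 and 3.42 against 3.06, 3.16 and 3.01. ENSMUST00000104977 was at 2.65, 2.95 and −0.50 against −1.04, −1.03 and −1.01, the widest spread of any member among GFRα1+ arrays (SD 1.91, n = 3). In these 3 the third GFRα1+ array was nearer to the NGN3+ arrays than to the other GFRα1+ arrays, and whole testes, none of them on the second slide, had levels between.

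Transcripts described in the files as gag proteins, a retroviral gene, formed a small set of 4: Gm3651, Gm4148, Gm2251 and Gm2627. Gm2251 was at 2.84, 3.22 and 2.04 in GFRα1+, 1.07, 1.24 and 1.11 in NGN3+, 1.30, 1.10 and 1.25 in KIT+ cells and 3.96, 3.63 and 3.38 in whole testes. Replicate 3 was the lowest GFRα1+ array in all 4 (33.9% of all genes that met the floors), 0.90 to 1.30 above the NGN3+ mean. Whole testes were higher than NGN3+ cells in all 4, by at least 1.5 and at most 2.51. The probe of Gm2627 shares at least 30 bases with that of XM_001472371, and the probe of Gm4148 with that of A130040M12Rik, both members too, so that these names may stand for the same sequences.

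Whole testes were not used to choose the members, although the NGN3+ arrays they are set against were. By limma 45 of the 109 were lower in whole testes than in NGN3+ cells (44.5% of the 25341 genes tested) and 39 were higher (39.3%), 84 in all (83.7%), shares near those of all genes. Each whole testes array lay below each NGN3+ array in 52 (45.9% of all genes tested) and above in 46 (40.6%). No whole testes array shared a slide or an extraction version with an NGN3+ array, and with slide as a block the 39 became 21. The members thus went in both directions in whole testes much as all genes tested did, and nothing particular to the members is read from this. Among protein-coding members 39 of 73 were lower and 21 higher, and among the others 6 of 36 were lower and 18 higher. This split by class was not set against the shares of all protein-coding and all other genes. Whole testes lay below every sorted array in 49 members and above every sorted array in 9. These counts have no share of all genes beside them, and nothing is read from them. The same holds wherever whole testes are described above as below every sorted array. Against GFRα1+ cells, whose arrays also chose the members, 87 were lower (50.3% of all genes tested) and 6 were higher (37.2%). Of the 135 genes that fell further in KIT+ cells, 93 were lower in whole testes than in NGN3+ cells and 20 higher.

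**Figure D5:**
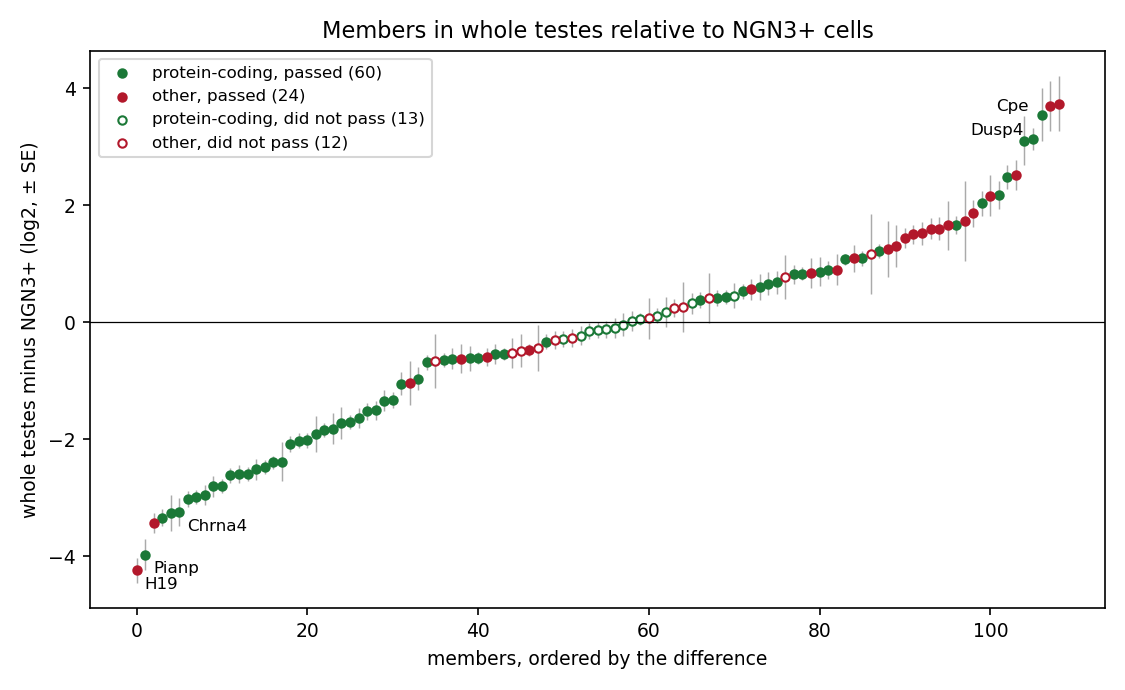
Log2 difference between whole testes and NGN3+ cells (y axis, ± SE from limma) for the 109 members in order of that difference, protein-coding members in green and the others in red, filled where the adjusted p was under 0.05. H19, Pianp and Chrna4 lie among the lowest, Dusp4 and Cpe among the highest, and differences run from −4.23 to 3.74.

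Other probes for the same genes were read as well. Of 39 such probes for 23 members, 34 had a lower mean in NGN3+ than in GFRα1+ cells and 5 a higher one, with a median log2 difference of −1.47. The 30 probes that gave a signal well above background on every GFRα1+ array were all among the 34, with 17 of them at least 1.5 lower, but keeping probes by their GFRα1+ signal favours such a difference. The other 9 ranged from −0.89 to 0.95. All were measured on the same RNA and arrays as the probes that chose the members.

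The promoters of 4 members that differ in role are shown as examples of the motifs that were counted. Sequences are the 250 bases before the RefSeq start site, 5′ to 3′ on the strand of the gene in GRCm38.p6, at chr2:181039178-181039427 on the minus strand for Chrna4, chr9:64022060-64022309 on the minus strand for Smad6, chr4:95052223-95052472 on the minus strand for Jun and chr3:96269450-96269699 on the plus strand for H2bc18. Capitals mark the GC box GGGCGG or its complement in Chrna4 and Smad6, the variant AP-1 motif TGACATCA in Jun and the octamer ATTTGCAT, typical of histone H2B promoters, in H2bc18.
Chrna4: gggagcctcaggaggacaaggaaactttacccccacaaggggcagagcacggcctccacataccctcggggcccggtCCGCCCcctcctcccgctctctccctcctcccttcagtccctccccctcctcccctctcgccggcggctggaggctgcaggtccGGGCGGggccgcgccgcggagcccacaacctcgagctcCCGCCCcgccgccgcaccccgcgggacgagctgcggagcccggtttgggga
Smad6: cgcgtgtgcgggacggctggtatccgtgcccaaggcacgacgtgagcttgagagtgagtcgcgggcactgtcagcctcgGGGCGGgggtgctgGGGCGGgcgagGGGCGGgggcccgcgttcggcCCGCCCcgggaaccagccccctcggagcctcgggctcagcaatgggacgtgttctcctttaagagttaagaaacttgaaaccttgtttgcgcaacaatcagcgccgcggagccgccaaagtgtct
Jun: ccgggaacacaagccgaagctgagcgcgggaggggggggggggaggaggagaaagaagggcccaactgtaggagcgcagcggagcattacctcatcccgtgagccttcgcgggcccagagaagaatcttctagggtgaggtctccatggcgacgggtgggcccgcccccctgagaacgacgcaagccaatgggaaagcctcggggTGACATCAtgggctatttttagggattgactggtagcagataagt
H2bc18: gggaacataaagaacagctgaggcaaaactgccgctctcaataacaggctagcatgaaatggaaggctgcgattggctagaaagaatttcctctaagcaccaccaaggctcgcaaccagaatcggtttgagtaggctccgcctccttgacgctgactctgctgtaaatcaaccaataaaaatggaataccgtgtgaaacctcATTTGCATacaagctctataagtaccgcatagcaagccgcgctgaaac
RefSeq start sites were matched for 57 members. The 27025 genes set beside them were taken whatever their signal, whereas the members met both floors. Genes that met the floors were not counted apart, so that the differences below may not be particular to the members. On either strand the GC box was in 30 of 57, 52.6% against 35.4% of 27025 genes, and CCAAT in 45.6% against 37.5%. The 6 genes with a symbol in the chromosome 2 stretch all had CCAAT on both strands at the same spacing. They may therefore not count as separate promoters. With the start site of highest G and C content taken for each gene, the median content was 59.2% for members and 52.8% for all genes. The E box CACGTG was in 14.0% against 6.86%, the ETS motif CCGGAAG in 7.02% against 7.83%, TATAAA in 7.02% against 14.3%, the AP-1 motif TGANTCA in 3.51% against 7.82%, TGACATCA in 7.02% against 3.41% and the octamer in 3.51% against 1.81%. The letters of the CRE motif TGACGTCA were in none of the 57 windows and in 1.77% of all genes. These 9 motifs do not contain each other, and matches are matches of letters and not measured binding.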

How the data were processed

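The authors scanned 1-colour Agilent mouse arrays and extracted them with Agilent Feature Extraction (10.7.3.1 in the submitters' processing notes, 10.7.1.1 and 10.7.3.1 per the file headers). They deposited, for each array, the intensity of each spot (the processed signal, from which background had been subtracted) and its quality flags. They also deposited a table of log2 values, which on 99.9% or more of the probes of each array lay within 0.05 of the log2 processed signal minus the array's 75th percentile. Its scale and centring were found that way, and column medians ran from −3.85 to −3.45. For their own analysis the authors used GeneSpring, with Benjamini-Hochberg correction of t-test results.

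Members were found on the deposited log2 table. All other values are log2 of the processed signal minus the 75th percentile of each array, without control spots and without the 103 to 161 spots per array marked as outliers, from 55681 probes. No spot was saturated. A name was represented by its probe of highest mean on the 9 sorted arrays. Names were updated through RefSeq (GRCm38.p6) with 26413 probes matched on their accession, 3859 on the symbol and 735 on a synonym, and probe coordinates are those of the files (mm9). A gene was tested if, in either group compared, its probe exceeded background clearly on all 3 arrays. The tests were those of limma 3.58.1 under R 4.3.3 (functions lmFit and eBayes), with Benjamini-Hochberg adjustment over all genes tested and an adjusted p under 0.05 as the threshold. The 9 sorted arrays entered 1 fit, and comparisons with whole testes used all 12 arrays. The fit was tested on simulated data. Replicates were RNA samples of different animals, and the number of arrays limits the precision: 3 against 3 cannot give an exact permutation p under 0.1.

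Named were members with a RefSeq symbol among the 20 deepest falls and the 10 brightest, those in gene lists (at most the 4 deepest falls for lists of a whole gene family), the 5 highest and 5 lowest in whole testes relative to NGN3+ cells that passed, members beside each threshold, and Gfra1, Neurog3 and Kit. The members and lists were chosen with earlier results of these data known. Alternatives covered background correction, normalization, filters, probe choice, slide, replicate block, single arrays and the limits of the rule.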

Additional observations from a re-analysis of the deposited data

How the results depend on the processing

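The 109 members were counted on the deposited table. With normexp background correction the members came to 96 (65 of the 109 among them), and with quantile normalization to 85. The scanner values with outlier spots kept gave 110, and the mean of all probes of a gene gave 101. When the percentile was taken over the probes detected on all arrays there were 11, since that scaling lowers all levels against the floor for GFRα1+ cells and shifts the median of all genes from −0.19 to −0.01. Under it 16 members were called changed between KIT+ and NGN3+ cells and 10 exceeded GFRα1+ cells in whole testes. In NGN3+ cells 5933 genes then passed as higher and 5939 as lower, against 4765 and 8654. A fall of at least 1 gave 535 members, a fall of at least 2 gave 29, a KIT+ window of 0.25 gave 67, a window of 1 gave 179 and no floor on NGN3+ cells gave 114. With single arrays left out the members numbered 87 to 215, the 215 without GFRα1+ replicate 3.

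Between KIT+ and NGN3+ cells 10 members were called changed, 3 with no filter on dim probes, 16 with slide as a block, and 3 to 16 over all arrays left out in turn. The count was 16 without GFRα1+ replicate 3, 3 without NGN3+ replicate 1 or 2 or without KIT+ replicate 3, 5 without KIT+ replicate 1 and 6 without GFRα1+ replicate 2 or NGN3+ replicate 3. With slide as a block 5611 genes were lower in NGN3+ cells and 21 members were higher in whole testes than in NGN3+ cells, and on the second slide alone 5051 genes were lower. Testing only genes well above background on every array compared gave 2630 higher genes. The methods' t-test after Benjamini-Hochberg adjustment put 2 members above GFRα1+ cells in whole testes. The members called lower in NGN3+ cells numbered 92 to 109 over all alternatives, lowest by that t-test.

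The replicate numbers were not taken as pairs. Same-numbered deviations correlated at −0.02, −0.15 and 0.07 between NGN3+ and GFRα1+ arrays and at −0.31, −0.43 and 0.16 between KIT+ and NGN3+ arrays. Some differently numbered arrays correlated more, at 0.46 for KIT+ replicate 2 with NGN3+ replicate 1 and 0.34 for KIT+ replicate 1 with NGN3+ replicate 2. Whether KIT+ and NGN3+ samples shared mice or a sort under other numbers was not tested. With the replicate block 3 members were called changed between KIT+ and NGN3+ cells, and 109 were lower in NGN3+ cells.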
